A study of Homo sapiens with 15 samples.

Results

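H3K27ac, acetylation of lysine 27 on histone H3, was compared between the lung metastatic sub-population LM2 and the parental line Par at every consensus H3K27ac region, here called an element, and each element was assigned to the protein-coding gene with the nearest transcription start. The 62195 H3K27ac elements make up most of the 84767 regions counted in the study, the other 22572 being H3K4me3 regions. Par is MDA-MB-231, a human triple-negative breast cancer cell line with mesenchymal features. LM2 is a sub-population of the same line with tropism for the lung, and BrM2 is one with tropism for the brain. LM2 and BrM2 are each a single selected population, so metastatic tropism cannot be told apart from other differences that a population acquired. The labels name no treatment. All were cultured for 3 days with 10% serum and fixed in 1% formaldehyde, for 10 min according to the labels, while the study's methods give a longer time. H3K27ac was measured in 2 biological replicates of each line.

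H3K27ac marks the nucleosomes beside active promoters and active enhancers, and it is laid down by the acetyltransferases p300 and CBP. H3K4me3, in contrast, is concentrated at active promoters. Enhancers can act over long distances and can skip genes, so the nearest gene names an element's position and is not a measured target. Clusters of acetylated elements along 1 gene are a common feature of genes that are strongly used in a given cell type.

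Library size ranged from 3760289 to 6450028 counts in elements for the 4 Par and LM2 libraries, and from 1994996 to 3923267 for BrM2. Replicate libraries of a line were closer to each other (Pearson r of log2(CPM + 1) across elements of 0.945 in Par and 0.938 in LM2) than Par and LM2 libraries were (0.891 to 0.911). All 7 mesenchymal markers examined (VIM, CD44, AXL, ZEB1, SNAI2, CAV1 and FN1) had an H3K27ac element within 2 kb of a start, with 13.5 to 79.3 normalised counts per kb in Par and LM2. Of the 9 luminal markers, PGR had none, and the other 8 had one with 3.94 to 66.4 normalised counts per kb. EPCAM (43.3 to 58.0 in Par) and CLDN7 (40.3 to 51.9 in Par) lay among the mesenchymal markers rather than below them, so acetylation at these starts did not separate both marker sets.

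Sequences are shown for 3 elements that rose and 3 that fell in LM2, to illustrate what these elements consist of. Each is the central 300 bases of the reference sequence (hg19, plus strand), and capitals mark matches to any of the 10 short motifs searched, which are spelled out with their frequencies near the end of the results. The elements are 4810 to 9692 bases long, so the centre is a sample of each element and not its most acetylated point. The MSI2 window (chr17:55520353-55520652) lies in an intron, the BMP7 window (chr20:55563018-55563317) is intergenic, and the NALF1 window (chr13:108103177-108103476) lies in an intron.
MSI2: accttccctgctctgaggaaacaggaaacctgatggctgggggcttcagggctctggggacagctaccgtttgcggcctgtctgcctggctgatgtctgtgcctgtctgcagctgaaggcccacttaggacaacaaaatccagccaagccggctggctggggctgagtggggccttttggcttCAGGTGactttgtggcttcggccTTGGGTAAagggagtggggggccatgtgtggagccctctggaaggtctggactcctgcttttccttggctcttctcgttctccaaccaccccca
BMP7: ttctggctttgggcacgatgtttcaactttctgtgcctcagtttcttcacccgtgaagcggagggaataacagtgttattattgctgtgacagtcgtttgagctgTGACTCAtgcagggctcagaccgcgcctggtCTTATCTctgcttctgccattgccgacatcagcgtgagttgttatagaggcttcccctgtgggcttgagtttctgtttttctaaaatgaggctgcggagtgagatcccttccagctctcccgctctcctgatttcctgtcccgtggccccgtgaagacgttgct
NALF1: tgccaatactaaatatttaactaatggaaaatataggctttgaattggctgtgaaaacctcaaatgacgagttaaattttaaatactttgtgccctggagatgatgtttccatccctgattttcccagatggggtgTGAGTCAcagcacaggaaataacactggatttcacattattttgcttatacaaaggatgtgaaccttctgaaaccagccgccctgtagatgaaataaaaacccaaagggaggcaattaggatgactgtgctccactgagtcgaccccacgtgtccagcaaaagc
The 3 lower elements are intergenic and lie nearest to EPHB6 (chr7:142507161-142507460), UNC5CL (chr6:40964896-40965195) and HS3ST1 (chr4:11546860-11547159).
EPHB6: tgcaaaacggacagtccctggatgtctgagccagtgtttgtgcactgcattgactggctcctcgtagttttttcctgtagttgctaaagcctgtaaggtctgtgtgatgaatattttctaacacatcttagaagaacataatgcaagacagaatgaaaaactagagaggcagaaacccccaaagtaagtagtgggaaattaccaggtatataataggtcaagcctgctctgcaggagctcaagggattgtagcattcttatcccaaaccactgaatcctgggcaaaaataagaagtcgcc
UNC5CL: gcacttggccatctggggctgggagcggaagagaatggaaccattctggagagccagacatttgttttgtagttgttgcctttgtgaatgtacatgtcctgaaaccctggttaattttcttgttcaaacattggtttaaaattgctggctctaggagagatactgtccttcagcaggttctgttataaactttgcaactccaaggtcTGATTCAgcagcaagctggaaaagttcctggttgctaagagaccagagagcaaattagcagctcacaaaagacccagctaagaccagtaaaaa
HS3ST1: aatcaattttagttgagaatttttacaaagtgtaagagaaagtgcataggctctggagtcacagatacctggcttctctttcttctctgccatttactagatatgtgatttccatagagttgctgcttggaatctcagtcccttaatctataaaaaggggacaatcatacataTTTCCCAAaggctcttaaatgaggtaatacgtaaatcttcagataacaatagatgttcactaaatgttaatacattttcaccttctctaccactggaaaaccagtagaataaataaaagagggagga
The BMP7, NALF1 and UNC5CL windows each held 1 AP-1 match, and the EPHB6 window held none of the 10 motifs.

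Acetylation differed between LM2 and Par at 1776 elements, and most of these gained the mark in LM2. Of the 48931 elements with enough counts for an adjusted p, 1776 (3.63%) passed an adjusted p of 0.05 in the DESeq2 Wald test. Acetylation was higher in LM2 at 1332 elements (2.72%) and lower at 444 (0.907%), so 75% of the changed elements were higher (95% Wilson interval 72.9 to 77.0, counting error only). The other 13264 elements had too few counts for an adjusted p. The changes were large, with a median log2 fold change of 2.22 for higher and -1.56 for lower elements, while the median over all tested elements was -0.04. Higher elements had a median of 12.6 normalised counts in Par and 59.2 in LM2. Lower elements had a median of 101 in Par and 35.7 in LM2, and all tested elements 35.5 and 37.0. The elements were called on this difference, so their levels in Par are not separate results. These counts are also not scaled to length, with a median of 2329 bases for higher, 3308 for lower and 1948 for all tested elements. At 131 higher elements both Par libraries had at most 3 counts, and at 5 lower elements both LM2 libraries did, so the fitted fold change of these elements has no firm size, and the medians above include them. Leaving out any single Par or LM2 library lowered the number of changed elements to between 358 and 564, and leaving out BrM2 replicate 1 lowered it to 1126, and between 78.5% and 84.4% were higher in each case in which a library was left out. The share was 66.2% with the replicate number as a block, where lower elements rose in number to 879, and 58.5% with edgeR and the block.

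**Figure D1:**
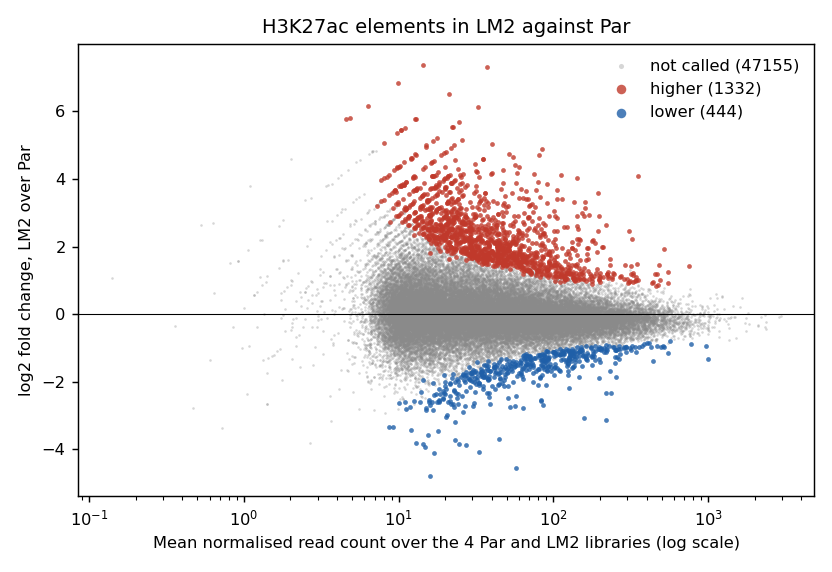
Each point is 1 of the 48931 tested H3K27ac elements, with the mean normalised read count over the 4 Par and LM2 libraries on the x axis (log scale) and the log2 fold change of LM2 over Par on the y axis. Red points are the 1332 higher and blue points the 444 lower elements, and the highest fold changes sit at low mean counts.

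Most changed elements lay away from promoters. Only 137 of the higher and 89 of the lower elements lay within 2 kb of a protein-coding start, and 1.6% of the tested promoter elements changed, against 3.78% of those in introns, 4.36% of those over exons and 5.08% of intergenic ones. Higher elements were also farther from a start, with a median distance of 53440 bases, against 23102 bases for lower elements and 16236 bases for all tested elements. More than 100 kb separated 35.1% of the higher elements from the assigned start, against 17.1% of the lower ones and 17.3% of all tested elements.

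Some of the changed elements lay at genes with several of them. Among the 14845 genes with at least 1 element, 223 had 2 or more higher elements and 61 had 2 or more lower ones, and none was in both sets. These genes held 666 (50%) of the higher and 171 (38.5%) of the lower elements. The genes are defined by their changed elements, so part of these shares is built in. The share of all tested elements that they hold is not given here. At least 3 higher elements were found at 104 genes and at least 3 lower elements at 27. Changes in both directions were found at 18 of the 1205 genes with any changed element. Only a gene with at least 2 changed elements can show this, and most of the 1205 had 1. A place in both sets above takes 2 changed elements of each direction, so these counts do not measure how far directions agree within genes. Long genes and genes beside gene deserts collect more elements (a median of 11 elements per gene with several higher elements and 2 over all genes), and this adds to their chance of holding several changed ones. With the replicate number as a block, 431 genes had several changed elements in 1 direction in place of 284. Without 1 of the Par or LM2 libraries the number was 50 to 78, and without BrM2 replicate 1 it was 181. Limiting assignments to 100 kb left 184 genes.

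When the counts of all elements of a gene were summed, 485 genes were higher (3.27% of 14845) and 194 were lower (1.31%) in LM2. With the replicate block these numbers were 794 and 521. Without 1 library at a time the total of 679 fell to between 198 and 514. It was 411 genes without Par replicate 1, 343 without Par replicate 2, 198 without LM2 replicate 1 and 314 without LM2 replicate 2. Of the 223 genes with several higher elements, 169 were also higher by their sum, and of the 61 with several lower elements 47 were lower by their sum. Each of the 24 genes described next passed the test on its sum, but its elements chose it, so the sums below are given as a description. They are normalised counts over all elements of the gene, with the log2 fold change of LM2 over Par and its standard error from DESeq2.

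BMP7, NTRK3 and FZD8, which encode ligands or receptors, were among the genes with most higher elements. BMP7, a secreted ligand of the bone morphogenetic protein family, had 8 higher elements of 15 tested, all 188 to 289 kb from its start and beyond the end of the gene. Its sum was 438 and 491 in the Par libraries and 2208 and 2071 in the LM2 libraries, a log2 fold change of 2.20 ± 0.18. Both LM2 libraries lay far above both Par libraries at each of the 8 elements. NTRK3, the receptor for neurotrophin-3, had 10 higher elements of 19, none within the gene and all 114 to 743 kb from its start. The NTRK3 sum was 454 and 416 in Par and 1314 and 1205 in LM2 (1.53 ± 0.19). Elements of other genes within 2 Mb of those of NTRK3 were raised as well, with a median log2 fold change of 0.69 over 56 elements. FZD8, a Frizzled receptor for Wnt ligands, had 6 higher elements of 9, including the one over its start. FZD8 summed to 219 and 249 in Par and 661 and 604 in LM2 (1.44 ± 0.21), with no overlap between the lines.

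PAPPA, SPOCK1 and PXDN encode secreted or matrix proteins. PAPPA, a metalloproteinase that cleaves insulin-like growth factor binding proteins, had 12 higher elements of 26 tested, 8 of them inside the gene, 1 of them over a start, and a run of 8 next to each other. Its sum was 975 and 825 in Par and 2832 and 3099 in LM2 (1.72 ± 0.18). The other 14 tested PAPPA elements did not pass, with log2 fold changes from 0.45 to 1.36. SPOCK1, a proteoglycan of the extracellular matrix, had 6 higher elements of 10, all within the gene. The SPOCK1 sum was 169.9 and 124 in Par and 470 and 599 in LM2 (1.86 ± 0.25). Its leading element (chr5:136704465-136709179) held 5.23 and 7.01 normalised counts in Par and 87.0 and 135 in LM2. PXDN, peroxidasin, which crosslinks collagen IV, had 6 higher elements of 15 and a smaller change of the sum, from 829 and 773 in Par to 1619.7 and 1619 in LM2 (1.02 ± 0.18). At PXDN 3 of the 9 elements that did not pass pointed the other way, with the lowest log2 fold change at -0.80.

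Signalling enzymes and a channel subunit formed another group. NALF1, an auxiliary subunit of the sodium leak channel NALCN, had 11 higher elements of 16 tested over 541.0 kb, including the one over its start. Its sum was 278 and 235 in Par and 1274 and 1267 in LM2 (2.31 ± 0.20). NALF1 lies on chromosome 13, where the neighbouring elements of other genes were also raised, with a median of 0.47 over 43 elements. PLCB4, a phospholipase C that acts downstream of G protein-coupled receptors, had 7 higher elements of 8 tested, none at its start. It summed to 76.5 and 71.4 in Par and 391 and 348 in LM2 (2.32 ± 0.26). PDE1C, a phosphodiesterase of cyclic nucleotides, had 6 higher elements of 13, all inside the gene, with sums of 293 and 198 in Par and 796 and 828 in LM2 (1.72 ± 0.23). The surrounding elements of other genes moved the other way at PDE1C, with a median of -0.31 over 57 elements.

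Regulators of RNA and the genome formed a further group. MSI2, an RNA-binding protein of the Musashi family, had, like PAPPA, 12 higher elements of 17 tested, and 11 of the 12 lay inside the gene. The MSI2 sum was 198 and 174 in Par and 1301 and 1267 in LM2, a log2 fold change of 2.78 ± 0.20. The 5 tested MSI2 elements that did not pass also had positive log2 fold changes, from 1.07 to 2.76, while 77 elements of other genes within 2 Mb had a median of 0.03. Of the higher MSI2 elements 2 lay at annotated starts, and the smallest change among the 12 was that of the element nearest to the gene's 5′ end, with a log2 fold change of 1.46. MCPH1, microcephalin, which acts in chromosome condensation and the DNA damage response, had 6 higher elements of 10, all outside the gene, and summed to 253 and 266 in Par and 633 and 443 in LM2 (1.05 ± 0.24). ADARB2, a member of the RNA-editing deaminase family, had 5 higher elements of 11, all outside the gene, with sums of 229 and 261 in Par and 826 and 856 in LM2 (1.78 ± 0.21).

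The last pair of genes with many higher elements were ANKRD30A, a breast differentiation antigen, and ASTN2, an astrotactin of neuronal migration. ANKRD30A had 6 higher elements of 8 tested, none inside the gene, and its sum was 213 and 139 in Par and 1319 and 721 in LM2 (2.53 ± 0.29). The LM2 replicates differed here by a wide margin, yet both lay above Par. ASTN2 had 5 higher elements of 7, with sums of 139.6 and 111 in Par and 430.1 and 403 in LM2 (1.73 ± 0.25). ASTN2 lies beside PAPPA on chromosome 9, and 12 of the 51 elements of other genes around it were higher too. The number of higher elements of several genes depended on single libraries. Leaving out any 1 of the Par and LM2 libraries left 0 at ASTN2, 0 to 4 at MCPH1, 0 to 2 at FZD8, 1 or 2 at PLCB4 and 1 at SPOCK1, against 6 to 8 at MSI2, 4 to 7 at PAPPA and 6 at BMP7. At the lower genes described next the number was 0 to 4.

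**Figure D2:**
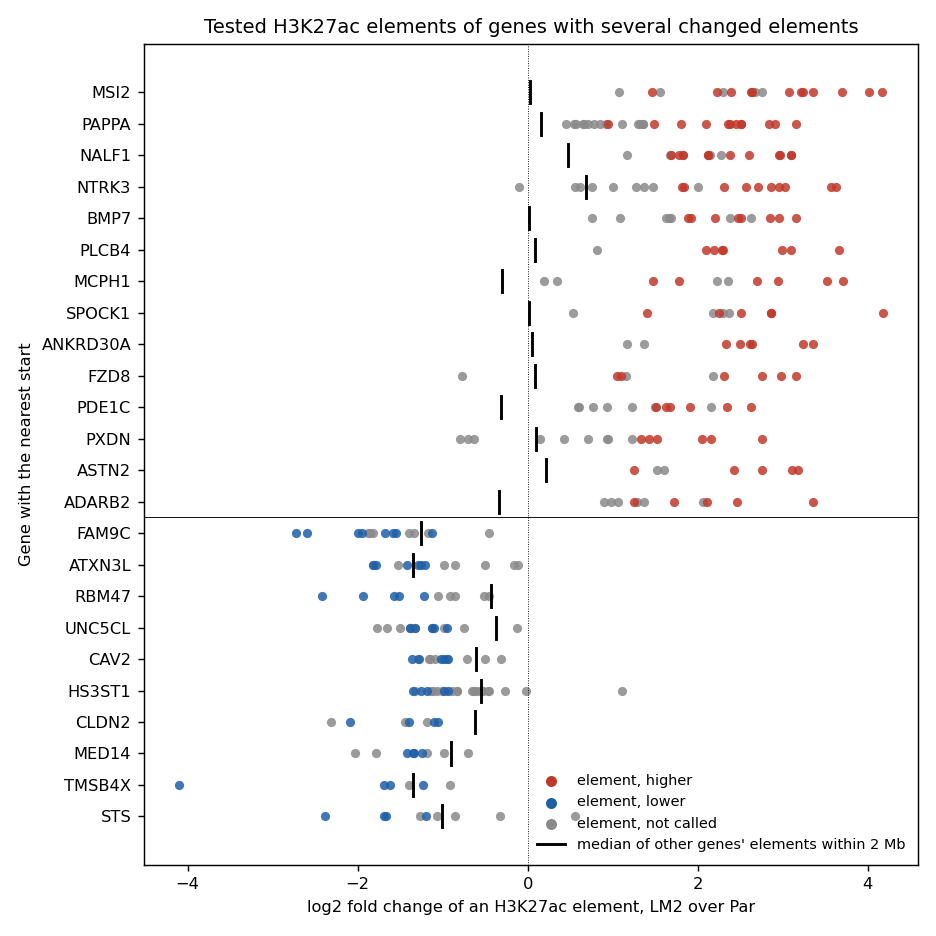
Each row is 1 of the 24 named genes and each point 1 of its tested H3K27ac elements, placed by the log2 fold change of LM2 over Par. Red and blue points passed the test, grey ones did not, and the black bar is the median of other genes' elements within 2 Mb. All red points lie to the right of their gene's bar, while the blue points of FAM9C, ATXN3L and TMSB4X lie on both sides of theirs.

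At the genes with most lower elements, the median change of the elements around them was negative as well. The median log2 fold change of other genes' elements within 2 Mb lay between -0.34 and 0.69 for the 14 higher genes. For the 10 lower genes it lay between -1.35 and -0.37. The ranges nearly meet, at ADARB2 (-0.34) and UNC5CL (-0.37), and of the 91 elements around UNC5CL 9 were higher and 3 lower. Of the 10 lower genes, 6 lie on chromosome X. FAM9C, ATXN3L and TMSB4X lie close together there, so the elements of each count among the neighbours of the others. On chromosome X below 50 Mb, a limit chosen after its values were seen, 72 of 522 tested elements were lower and 1 was higher, and the elements that did not pass had a median of -0.67. Above 50 Mb 11 of 650 were lower and 12 higher. Chromosome 13 showed the opposite, with 95 higher and 2 lower elements of 1335 and a median of 0.52 among the elements that did not pass. What these regional shifts contribute to the change of a single element was not tested. When the median log2 ratio of each 5 Mb window was removed, 1205 higher and 220 lower elements passed the test, 1235 of them among the original 1776. The number of higher elements then was 12 at MSI2, 9 at PAPPA, 6 at BMP7 and 6 at NALF1. It fell from 10 to 5 at NTRK3, from 6 to 3 at PXDN, whose sum then did not pass, and from 6 to 1 at FZD8. Of the 25 elements behind the PXDN window median 13 were PXDN's own, so its removal took away part of the gene's own change. The median log2 fold change in that window was 0.43, against 0.10 for the elements of other genes in it. Each of the 10 lower genes had at most 1 lower element with 5 Mb medians removed. The sums of FAM9C, ATXN3L, TMSB4X, STS, MED14, CAV2 and HS3ST1 then did not pass, while those of RBM47, UNC5CL and CLDN2 did.

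Among the lower genes outside chromosome X, RBM47, which encodes an RNA-binding protein of epithelial cells, had 5 lower elements of 10 tested. It summed to 935 and 962 in Par and 522 and 335 in LM2 (-1.14 ± 0.24). CAV2, caveolin-2 of the caveolar coat, had 5 lower elements of 13, all inside the annotated gene, with sums of 2328 and 1976 in Par and 1151 and 1094 in LM2 (-0.94 ± 0.19). UNC5CL, which acts in inflammatory signalling, had 5 lower elements of 15. Its sum was 2932 and 3456 in Par and 1348 and 1729.9 in LM2 (-1.05 ± 0.19). HS3ST1, a heparan sulfate sulfotransferase, had 5 lower elements of 23 and the smallest change, with sums of 3031 and 2151 in Par and 1563 and 1403 in LM2 (-0.80 ± 0.21). At each of these genes both LM2 libraries lay below both Par libraries.

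On chromosome X, FAM9C, a testis-expressed gene, had 8 lower elements of 15 and sums of 1225 and 1091 in Par and 439 and 350.1 in LM2 (-1.55 ± 0.21). Its neighbour ATXN3L, which is related to the deubiquitinase ataxin-3, had 6 lower elements of 13 (-1.25 ± 0.24). TMSB4X, thymosin beta 4, which binds actin monomers, had 4 of 6, and both H3K4me3 peaks at these elements were lower too. It summed to 834 and 772 in Par and 335 and 305 in LM2 (-1.33 ± 0.21). STS, steroid sulfatase, had 4 of 9 (-1.16 ± 0.20), and MED14, a subunit of the Mediator complex, had 4 of 9 (-1.25 ± 0.21). These 5 genes lie on the part of the chromosome where 13.8% of all tested elements were lower. CLDN2, a pore-forming claudin of tight junctions, lies elsewhere on the chromosome, and had 4 lower elements of 7 with sums of 904 and 1088 in Par and 414 and 465 in LM2 (-1.18 ± 0.20). Around CLDN2 the median of other genes' elements was -0.62.

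**Figure D3:**
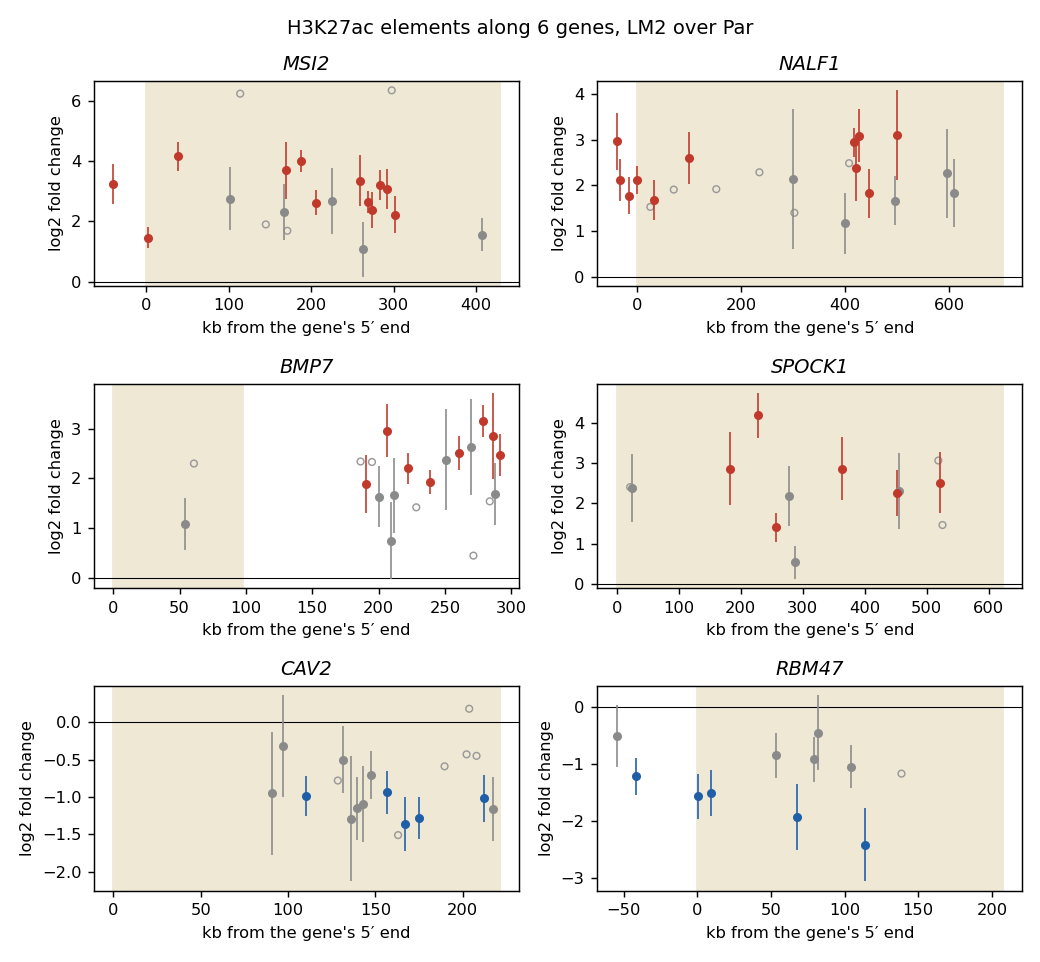
H3K27ac elements along MSI2, NALF1, BMP7, SPOCK1, CAV2 and RBM47, with the distance from the gene's 5′ end in kb on the x axis, the log2 fold change of LM2 over Par on the y axis, error bars of 1 standard error and the gene body shaded. Red and blue points passed the test, grey ones did not, and open circles had too few counts. Higher elements spread over the MSI2 and SPOCK1 bodies, while those of BMP7 lie 188 to 289 kb away.

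The single elements with the strongest evidence were a second view that does not depend on how many elements a gene has. The most significant was a broad element in an intron of PCBP3, a poly(C)-binding protein (chr21:47292366-47308393), with 34.8 and 43.1 normalised counts in Par and 634 and 688 in LM2. The log2 fold change was 4.09 ± 0.30 (adjusted p = 1.68e-37). The leading MSI2 element (chr17:55517124-55523880) had 20 and 13.0 in Par and 274 and 265 in LM2, or 4.01 ± 0.37 on the log2 scale (adjusted p = 5.51e-23). At both elements the LM2 libraries lay far above the Par libraries. An intergenic element 89742 bases from the start of METRNL, a secreted protein of the meteorin family, rose from 26.1 and 34.1 to 306 and 410 (3.57 ± 0.36, adjusted p = 1.52e-19). The leading BMP7 element (chr20:55560144-55566190) rose from 34.0 and 31.0 to 290 and 288 (3.15 ± 0.32, adjusted p = 8.29e-19). The replicates of this element were nearly equal within each line. An exonic element of NFILZ rose from 17.4 and 22 to 209.8 and 206 (3.40 ± 0.35, adjusted p = 1.27e-18), and an intergenic one near SYNDIG1, which acts in synapse development, rose from 27.9 and 31.0 to 304 and 278 (3.31 ± 0.36, adjusted p = 9.06e-17).

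Of the single elements that fell, the most significant was intergenic and nearest to EPHB6, an ephrin receptor without kinase activity (chr7:142502465-142512156). It had 295 and 266 normalised counts in Par and 27.5 and 41.4 in LM2, and fell by 3.06 ± 0.33 on the log2 scale (adjusted p = 7.66e-17). An intronic element of ACTR3C, related to a subunit of the Arp2/3 complex, fell from 291 and 489.8 to 38.1 and 52.2 (-3.12 ± 0.37, adjusted p = 3.96e-14), and the Par replicates differed from each other at it. An element nearest to the zinc finger gene ZNF675 fell from 426 and 365 to 64.5 and 93.6 (-2.34 ± 0.29, adjusted p = 1.73e-12). The one promoter in this group was that of PLAAT5, a phospholipid acyltransferase, with 134 and 86.1 in Par and only 4.49 and 4.93 in LM2 (-4.56 ± 0.58, adjusted p = 8.13e-12). This was the largest fold change of the 12 elements. Intergenic elements near BMP10, a ligand of the BMP family, fell from 140.3 and 156 to 20.2 and 26.6 (-2.69 ± 0.35, adjusted p = 1.76e-11), and near LAIR2, a soluble collagen receptor, from 409 and 328 to 83.6 and 60.1 (-2.34 ± 0.31, adjusted p = 6.66e-11). All 12 elements kept their call when any single library was left out and when 5 Mb medians were removed.

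**Figure D4:**
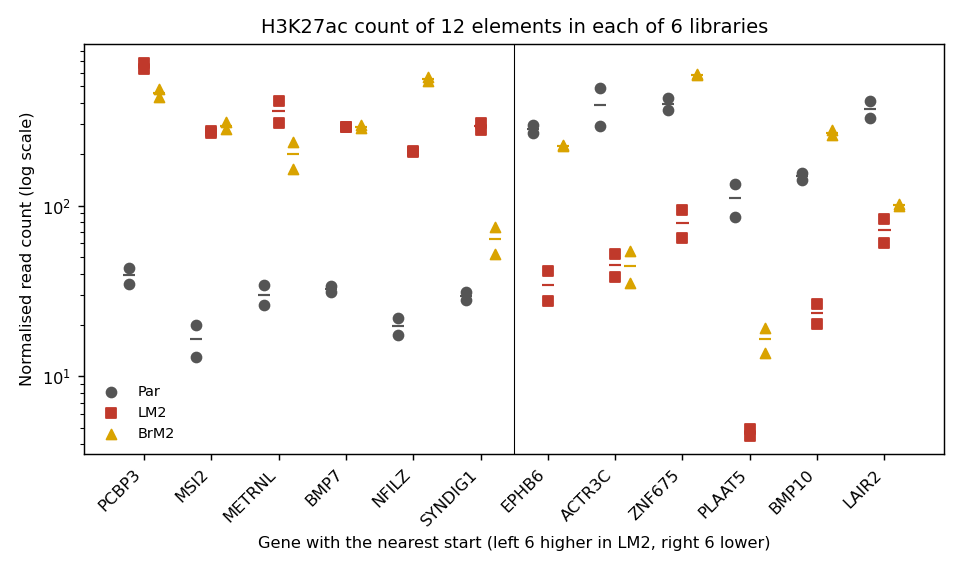
Normalised H3K27ac read counts (log scale) of 12 single elements in each of the 6 libraries, with Par as grey circles, LM2 as red squares, BrM2 as yellow triangles and short lines at the mean of 2 replicates. The 12 elements were chosen to have no overlap between Par and LM2. BrM2 lies near Par at EPHB6, above Par at BMP10, and beside LM2 at others, such as MSI2 and BMP7.

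Groups of genes were examined by counting the changed elements among all tested elements assigned to their members, for comparison with the 3.63% of all elements. Of the leading elements chosen for these groups alone, 15 kept their call under every alternative and 38 lost it under at least 1, so the adjusted p-values below are less firm than those of the single elements above. Cadherins and protocadherins, the calcium-dependent adhesion molecules, had 21 higher elements and 1 lower element of 163 tested (13.5%). CDH9 and CDH13 had 4 higher elements each, PCDH9 4 and CDH11 3. PCDH9 lies on chromosome 13, and its higher elements lay 294 to 1315 kb from its start. With 5 Mb medians removed the number of higher elements was 4 at CDH9, 2 at CDH13, 0 at PCDH9 and 3 at CDH11. The 1 lower element of the group was also that of CDH11, with a log2 fold change of -1.58, and it was the only changed CDH11 element at a start and inside the gene. The leading CDH11 element (chr16:64183635-64190831), 831406 bases from its start, went from 8.71 and 3.00 normalised counts in Par to 172 and 141 in LM2. Its log2 fold change was 4.71 ± 0.53 (adjusted p = 3.74e-15). The leading CDH9 element held 36.6 and 32.1 in Par and 365 and 182 in LM2 (3.00 ± 0.40, adjusted p = 6.66e-11). Elements of other genes near CDH9 and PCDH9 had raised medians of 2.60 and 1.06, but over only 4 and 9 elements. Those near CDH13 and CDH11 had medians of 0.09 and 0.00 over 72 and 45 elements. Within 1 Mb of the leading CDH11 element there were 0 unchanged elements with a mean of at least 20 counts, so the CDH11 median does not describe the close surroundings of that element.

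Wnt ligands, receptors and effectors had 11 higher and 3 lower elements of 145 (9.66%), and these came from only 4 genes. FZD8 had 6 and TCF7L2, a nuclear effector of the pathway, had 3 higher elements, while ROR1, a receptor for non-canonical Wnt signals, had 3 lower ones. The leading TCF7L2 element lay in an intron and had 27 and 40.1 normalised counts in Par and 149.8 and 153 in LM2 (2.18 ± 0.38, adjusted p = 3.47e-06). The leading ROR1 element went from 125 and 137 to 46.0 and 59.1 (-1.33 ± 0.34, adjusted p = 0.00491). At TCF7L2 the sum over all elements did not pass (-0.07 ± 0.17, adjusted p = 0.975). AP-2 factors had 5 higher elements of 51 (9.80%), 4 of them at TFAP2C, whose leading element held 14.8 and 11 in Par and 58.3 and 67.0 in LM2 (2.27 ± 0.52, adjusted p = 0.00132). TGF-beta and BMP genes had 12 higher elements and 1 lower one of 332 (3.92%), a share near that of all elements, and 8 of the 12 were those of BMP7.

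Other matrix and adhesion genes lay nearer to the share of all elements. The changed elements of the collagen, integrin and basement membrane groups were few and all higher, as were 75% of the changed elements over all genes. Collagens had 10 higher and 0 lower elements of 203 (4.93%), among them 3 each at COL19A1 and COL6A2. The leading COL19A1 element held 6.10 and 6.01 in Par and 94.2 and 81.8 in LM2 (3.86 ± 0.57, adjusted p = 6.82e-09). Integrins had 4 higher and 0 lower of 113 (3.54%), with 3 at ITGAE, the leading one going from 27.9 and 27 to 159 and 132 (2.41 ± 0.37, adjusted p = 5.56e-08). Laminins, tenascins and other basement membrane genes had 3 higher and 0 lower of 100 (3.00%), all at TNC, which encodes tenascin C and lies beside PAPPA on chromosome 9. The leading TNC element, 495547 bases from its start, had 42.7 and 56.1 in Par and 171 and 151 in LM2 (1.71 ± 0.35, adjusted p = 2.01e-04). Matrix metalloproteinases and ADAMTS proteases had 5 higher and 1 lower of 138 (4.35%). Among them the ADAMTS12 promoter element went from 153 and 147 to 37.6 and 63.1 (-1.6 ± 0.34, adjusted p = 4.40e-04). An element near MMP8 had raw counts of 0 and 2 in Par and 58 and 26 in LM2. Axon guidance genes had 15 higher and 5 lower of 425 (4.71%), with 3 higher at ROBO2 and 2 at SEMA5A.

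The AP-1 genes had 1 higher and 0 lower element of 90 (1.11%), the one being 426749 bases from MAF. RUNX and ETS genes had 4 higher and 2 lower of 209 (2.87%). Among these the EHF promoter element, at an epithelial ETS factor, had 187 and 187 normalised counts in Par and 82.5 and 68.0 in LM2 (-1.31 ± 0.31, adjusted p = 0.00182). The EHF sum did not pass and did not fall (0.09 ± 0.18, adjusted p = 0.962). The TEAD and YAP group had 2 higher and 0 lower elements of 78 (2.56%), at VGLL4 and TEAD4. Genes of the epithelial-mesenchymal transition had 5 higher elements and 1 lower one of 124 (4.84%), with 4 of the 5 at ZEB2, a repressor of epithelial genes. The leading ZEB2 element lay 500776 bases from the start and went from 20.9 and 15 to 201 and 181 (3.41 ± 0.39, adjusted p = 1.44e-14). The ZEB2 sum did not pass (0.55 ± 0.21, adjusted p = 0.111). GRHL2, an epithelial factor that opposes the epithelial-mesenchymal transition, had the lower one, with 165 and 187 in Par and 79.7 and 79.8 in LM2 (-1.14 ± 0.31, adjusted p = 0.0113). The GRHL2 sum did not pass either (-0.48 ± 0.19, adjusted p = 0.141). Luminal and basal lineage genes had 1 higher and 1 lower of 95 (2.11%), at ESR1 and KRT8, and the KRT8 call was lost under most alternatives.

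Secreted signals and their receptors had shares near that of all elements. Angiogenic factors and receptors had 8 higher and 1 lower element of 197 (4.57%), 3 each at PDGFD and THBS2. The leading THBS2 element, at a gene for an inhibitor of angiogenesis, had 40.9 and 21.0 in Par and 112 and 88.7 in LM2 (1.69 ± 0.43, adjusted p = 0.00550). EGF family genes had 1 higher and 1 lower of 98 (2.04%), where an EGFR element rose from 37.5 and 36.1 to 155 and 122 (1.92 ± 0.34, adjusted p = 4.74e-06) although the EGFR sum did not pass (-0.23 ± 0.18, adjusted p = 0.712). Cytokine genes had 2 higher and 0 lower of 79 (2.53%), both at IL1B. Genes tied to lung colonization in earlier work on this line had 5 higher and 1 lower of 119 (5.04%), 3 of the 5 at TNC. These 3 lay 471 to 496 kb from the TNC start and outside the gene. The last of them ends at chr9:118381721, and the first higher PAPPA element starts at chr9:118411554, so their naming rests on the nearest start.

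A pair of short lists was picked by the study on these lines and is therefore no independent evidence. Its vascular genes had 7 higher and 2 lower elements of 90 (10.0%), 2 higher ones each at EMP2, IL1B and SPHK1 and 2 lower ones at EDN1, which encodes endothelin-1. EMP2 encodes a tetraspan membrane protein. An element at an internal annotated start, 21.8 kb from the gene's 5′ end, had 5.23 and 10.0 normalised counts in Par and 63.4 and 48.3 in LM2, while the BrM2 libraries, at 2.92 and 7.71, lay beside Par. The change from Par to LM2 was 2.89 ± 0.63 on the log2 scale (adjusted p = 6.31e-04). The element at the 5′ end of EMP2 held 60.1 and 56.1 in Par and 49.9 and 63.1 in LM2 and did not pass (-0.05 ± 0.43). The change at the internal start lost its call without Par replicate 1 and without either LM2 library. The IL1B promoter element rose from 20 and 20 to 93.7 and 66.0 (2 ± 0.45, adjusted p = 9.72e-04). The leading EDN1 element fell from 207 and 193 to 56.1 and 84.8 (-1.53 ± 0.32, adjusted p = 3.10e-04). The study's 5 regulators of EGF receptor signalling had 1 higher and 5 lower elements of 51 (11.8%), with 3 lower at SH3KBP1, which lies on chromosome X where the surrounding elements had a median of -0.87. The changed element assigned to DAB2IP lay in an intron of TTLL11, 157361 bases from the DAB2IP start. It fell from 93.2 and 80.1 to 16.3 and 14.8 (-2.47 ± 0.46, adjusted p = 1.46e-05), while the DAB2IP sum did not pass (-0.04 ± 0.20, adjusted p = 0.998).

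H3K4me3, measured in separate libraries, was read where an H3K4me3 peak overlapped a changed element. Such a peak was present at 320 of the higher (24.0%) and 126 of the lower elements (28.4%), against 37.6% of all tested elements. At the higher elements H3K4me3 was itself higher in 98 (30.6%) and lower in 0, with a median log2 fold change of 2.04 over the 320 peaks. At the lower elements it was lower in 28 (22.2%) and higher in 0, with a median of -0.89 over the 126. These medians include peaks with too few counts for an adjusted p, such as that at the leading ZEB2 element (0 and 0 in Par, 3.05 and 5.29 in LM2), so their size is not firm. Over all 20821 tested H3K4me3 peaks, a set without those of too few counts, 523 (2.51%) changed and the median was 0.01. At the leading BMP7 element H3K4me3 rose from 12.9 and 20.8 to 157 and 162 normalised counts (log2 fold change 3.17, adjusted p = 4.60e-09). At the PLAAT5 promoter it fell from 55.1 and 40.1 to 3.05 and 5.29 (-3.39, adjusted p = 8.18e-04). The EHF promoter lost H3K4me3 as well (-2.71, adjusted p = 1.05e-05). With the replicate block in both fits 338 changed elements carried a changed H3K4me3 peak of the same direction in place of 126. Leaving out an H3K4me3 library of Par gave 79 or 39, and leaving out one of LM2 gave 64 or 72.

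**Figure D5:**
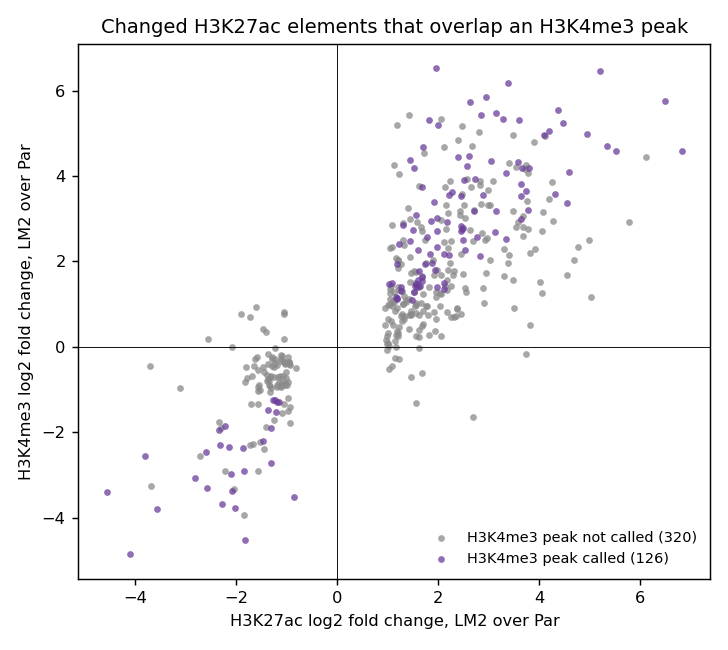
Each point is a changed H3K27ac element that overlaps an H3K4me3 peak, with the log2 fold change of H3K27ac on the x axis and that of the H3K4me3 peak on the y axis, both LM2 over Par. Purple marks the 126 elements whose H3K4me3 peak passed the test, and at each of these both marks changed in the same direction.

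LM2 was then set beside BrM2. Both were compared with the same 2 Par libraries, so their changes are not independent. At the elements higher in LM2 the median log2 fold change over Par was 2.22 in LM2 and 1.6 in BrM2, and at the lower elements it was -1.56 and -0.87. A direct test between LM2 and BrM2 called 2.94% of 46519 tested elements. It called 202 of the higher elements, at 180 of which LM2 was the higher line, and 94 of the lower ones, at all of which LM2 was the lower line. These elements were selected for their level in LM2, which favours that direction. With the replicate block the total was 561 in place of 296, and leaving out 1 library gave 27 to 123, the lowest value being the one without BrM2 replicate 1. Without BrM2 replicate 2 it was 79, without Par replicates 1 and 2 it was 91 and 123, and without LM2 replicates 1 and 2 it was 33 and 64. The leading MSI2 element, with 308 and 279.5 normalised counts in BrM2, did not pass this test (-0.13 ± 0.29, adjusted p = 0.936), and neither did the BMP7 element, with 285 and 295 (adjusted p = 0.999). In contrast the SYNDIG1 element held 51.7 and 75.2 in BrM2, well below LM2 (2.23 ± 0.34, adjusted p = 8.72e-08). The EPHB6 element kept 225 and 222 in BrM2 (-2.73 ± 0.33, adjusted p = 9.05e-13), and the BMP10 element had 277 and 258 there, above LM2 (-3.54 ± 0.35, adjusted p = 4.41e-20). Of the genes with several elements, PAPPA summed to 1569 and 1721 in BrM2, between Par and LM2 (0.85 for LM2 over BrM2, adjusted p = 3.51e-04), and UNC5CL to 2508 and 2721 (-0.76, adjusted p = 0.00425).

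The sequence of the changed elements was described by 10 short motifs, searched on both strands in the central 300 bases. AP-1 (TGANTCA) was found in 16.9% of higher, 15.1% of lower and 15.1% of all tested elements. RUNX (TGTGGTT) was found in 6.68%, 9.91% and 5.75%, and the motif of GATA factors (AGATAAG) in 3.23%, 5.41% and 3.60%. TEAD (GGAATGT) was found in 6.08%, 5.86% and 4.69%, and C/EBP (TTGNGNAA) in 15.7%, 16.7% and 15.2%. The ZEB E-box (CACCTG) was in 20.2%, 24.5% and 22.2%, FOX (TGTTTAC) in 3.08%, 4.28% and 3.90%, and STAT (TTCCNGGAA) in 1.35%, 0.225% and 0.971%. The STAT share of lower elements rests on 1 element, and in the central 1000 bases the STAT shares were 3.53%, 4.28% and 3.25%, with the lower elements highest. ETS (CCGGAAG) and AP-2 (GCCNNNGGC) were less common in changed elements, with 2.33%, 1.35% and 3.42% for ETS and 9.31%, 10.8% and 13.3% for AP-2. The changed elements hold fewer promoters than all elements, and outside promoters AP-2 was at 7.28%, 7.04% and 7.36% and AP-1 at 18.2%, 17.2% and 18.6%. RUNX outside promoters was at 6.78%, 11% and 6.75%, so its share was largest in the lower elements in both cases. ETS outside promoters was at 2.09%, 0.845% and 1.56%. The ETS and TEAD letters can overlap a STAT match at a shared GGAA. These shares are counts of letters and were not tested.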

How the data were processed

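ChIP-seq was analysed as raw read counts deposited by the authors for 12 libraries, 2 replicates of Par, LM2 and BrM2 for each of H3K27ac and H3K4me3. The 3 input samples were not analysed here. Per the labels and the study's methods, the authors aligned reads to hg19 with Bowtie2 2.3.4.3, marked duplicates with Picard 2.18.21, called broad consensus peaks with MACS2 2.1.2 on the merged libraries of each mark and counted reads extended by 150 bases at the 3′ end with featureCounts 1.6.0. Merged calling can miss or blur regions marked in 1 line. All count columns matched a sample (0 unmatched).

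The 6 libraries of a mark entered DESeq2 1.42.0 (R 4.3.3) with line as the only term, median-of-ratios size factors, the Wald test and Benjamini-Hochberg adjustment at 0.05, which leaves 3 residual degrees of freedom. Normalised counts are counts divided by size factors. Elements were assigned to the nearest protein-coding start of GENCODE release 44 on GRCh37 without a distance limit, and promoter means within 2 kb. Neighbouring elements were those of other genes within 2 Mb with a mean of at least 20 normalised counts. The text gives no fold change for a single element where both libraries of a line had at most 3 counts, while the plots show the fitted values. edgeR 4.0.16, other size factors, filters, regional corrections and left-out libraries were alternatives. The fits were tested on simulated counts.

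Named genes were the 15 with most higher and 10 with most lower elements (at least 3), the 6 higher and 6 lower single elements with the smallest adjusted p (mean count of at least 50, lines not overlapping), up to 4 genes of each of 20 lists, and EMP2. Of the genes with most higher elements, 1 is not reported here. The members, lists and motifs were chosen with earlier results of these data known, and genes named beyond this rule were chosen after their values were seen. Same-numbered libraries deviated together between lines (r of 0.340 for Par and LM2, 0.475 for Par and BrM2, 0.384 for LM2 and BrM2), so fits with the replicate number as a block are given, although no label names a shared batch.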

Additional observations from a re-analysis of the deposited data

Results flagged for a closer look

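The LM2 and BrM2 changes over Par differed, by the direct DESeq2 test between LM2 and BrM2 over all elements or all genes, at the named elements and described gene sums given here. Values are log2 fold changes of LM2 over BrM2, and both lines share the 2 Par libraries. Among higher elements, LM2 exceeded BrM2 at EMP2 (3.56), SYNDIG1 (2.23) and PAPPA (1.15), and it lay below BrM2 at NFILZ (-1.41). Among lower elements, LM2 lay below BrM2 at BMP10 (-3.54), ZNF675 (-2.90) and EPHB6 (-2.73). Among the leading elements of the gene groups, LM2 exceeded BrM2 at SEMA5A (2.81), VGLL4 (2.37), ADAMTS15 (2.22), ETV4 (2.05), TFAP2C (2.01), RUNX2 (1.95), TCF7L2 (1.91) and ADAMTS17 (1.22), and it lay below BrM2 at ADAMTS12 (-1.98), ROR1 (-1.60), EDN1 (-1.36), EHF (-1.29), BMP4 (-1.13) and GRHL2 (-1.08). Summed counts were higher in LM2 than in BrM2 at ASTN2 (1.21), PAPPA (0.85), NTRK3 (0.85), SPOCK1 (0.78) and DAB2IP (0.63), and lower at PDE1C (-0.75), UNC5CL (-0.76), EGFR (-0.75) and GRHL2 (-0.86). With 2 libraries a line, no group was large enough to look for single outlying samples.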

How the results depend on the processing

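The 1776 changed elements became 3195 with edgeR, 2598 with the DESeq2 replicate block and 8213 with edgeR and the replicate block, and all but 6 of the 1776 were called in the same direction by each of these 3 fits. The share of higher elements was 66.2% with the DESeq2 replicate block, 58.5% with edgeR and the replicate block, 80.8% with total counts as size factors, 82.9% with chromosome medians removed, 84.6% with 5 Mb medians removed and 78.5% with chromosome X left out, the last being chosen after seeing the data. No named element or gene sum lost its call with the replicate block. Genes with several changed elements numbered 535 with edgeR, 431 with the DESeq2 replicate block, 1512 with edgeR and the replicate block, 184 within 100 kb of a start and 131 when 3 elements were required. Genes with a changed sum numbered 1315 and 2741 with the replicate block in DESeq2 and edgeR, and 433 with 5 Mb medians removed. Changed elements with an H3K4me3 change numbered 338, and those that differed between LM2 and BrM2 561, with the replicate block. Leaving out 1 library at a time gave 358 to 1276 elements, shares of 78.5% to 84.4%, 50 to 201 genes with several elements, 198 to 514 gene sums, 39 to 109 elements with an H3K4me3 change (chosen after seeing the data) and 27 to 123 elements that differed between LM2 and BrM2. A left-out library leaves a line with 1 sample, which is then assumed to vary like the others. The sums of ZEB2, GRHL2 and EHF were not followed across the alternatives. Of the named elements and the other described gene sums, direction reversed only at 3 sums that did not pass in the first place, to 0.07 and 0.22 at TCF7L2 and 0.06 and 0.04 at EGFR with chromosome and 5 Mb medians removed, and at DAB2IP without Par replicate 2 (0.08) and without LM2 replicate 1 (0.02), in a range of -0.15 to 0.08 over the left-out libraries. Among the named elements of genes with several changes, single elements and EMP2, 23 kept their call under every alternative and 12 lost it under at least 1. For the leading elements of the gene groups these numbers were 15 and 38, and for the sums of genes with several changes and EMP2 they were 14 and 11. Depth limited the elements of low count, since 13264 had too few counts for an adjusted p, and 0.833% of those tested with a mean under 10 were called, against 5.21% of those with a mean of 20 to 50.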
